A study of Mus musculus with 16 samples.

Results

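Baricitinib (BAR) was compared with no drug at day 10 after the induction of bone marrow failure (BMF) in mice, in RNA of CD8+ T cells sorted from the marrow by flow cytometry. The members of this comparison were 10 of the 16 libraries of the study, taken by their treatment label: 5 libraries from BMF mice given baricitinib (BAR at day 10) and 5 from BMF mice without it (BMF at day 10). All 10 came from mice with marrow failure, so no healthy marrow stands in the comparison. The sources used here give no strain, sex, age, dose or way of induction, and they describe the groups partly as pooled cells. Whether each library is its own animal is not stated, and the p-values below therefore refer to variation among libraries, part of which may be technical. The remaining 6 libraries, from day 14, entered the model only to estimate the spread. Replicate numbers are names and pair no libraries.

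Immune marrow failure is a disease in which activated T cells destroy the blood-forming cells of the marrow. Baricitinib blocks JAK1 and JAK2, kinases bound to the inner side of cytokine receptors, which phosphorylate STAT transcription factors after a cytokine binds. In CD8 T cells, interleukin-12 signals mainly through STAT4, interleukin-2 and interleukin-15 through STAT5, and type I interferon through a complex that holds STAT2 and IRF9 and binds the interferon-stimulated response element of its target genes. These pathways guide a naive cell toward an effector cell that makes granzymes and interferon-gamma.

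The sorted cells carried the RNA of their label. The genes of the CD3 complex, CD8, their kinase Lck, Cd2 and Lat are 9 genes in the table. They summed to 5874 to 8047 CPM (counts scaled to library depth and composition) in BAR libraries and 6649 to 7953 CPM in BMF libraries. Of the 9, 0 were called different by edgeR's quasi-likelihood test, by DESeq2 or by limma voom, with 0 at an unadjusted p under 0.05 in each. Cd4, which marks helper T cells and some macrophages and dendritic cells, averaged 3.43 CPM in BAR and 0.994 CPM in BMF, and the list of CD4 and regulatory T cell markers summed to 163 to 198 CPM in BAR and 210.2 to 306 CPM in BMF libraries. Totals ran from 32625082 to 58659873 counts per BAR library and from 26066991 to 48568117 counts per BMF library.

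Rn45s, the precursor of ribosomal RNA, took 1.22, 1.22, 1.43, 1.25 and 1.399% of counts in the BAR libraries, against 5.53, 4.83, 5.81, 2.73 and 1.15% in the BMF libraries. BMF replicates 1 to 4 lay above every BAR library, and BMF replicate 5 lay below all of them. Lars2, which encodes the leucyl-tRNA synthetase of mitochondria, took 0.695, 0.832, 0.8498, 0.725 and 0.639% in the BAR libraries, against 3.57, 3.502, 5.73, 2.54 and 0.848% in the BMF libraries, where BMF replicate 5 lay within the BAR range. The mean share was lower in BAR for Rn45s (exact two-sided permutation p = 0.0476, n = 5 each). It was also lower for Lars2 (exact two-sided permutation p = 0.0159, n = 5 each), where 0.00794 is the smallest p this design can give. For both genes the ranges of the arms overlapped, because of BMF replicate 5. With any 1 BAR library left out, the exact two-sided permutation p for Rn45s was 0.0873. Of the 1180 genes called lower in BAR below, BMF replicate 5 lay at or below the highest BAR library for 602 (51.0%), while each other BMF library did so for 27 to 35. Of the 965 genes called higher, it lay at or above the lowest BAR library for 401 (41.6%). Each other BMF library did so for 33 to 77 of them. Where BMF replicate 5 is counted for a gene list below, only the genes that fell were counted. A gene is more readily called when 1 library rather than 2 is at odds with its arm, so these counts describe the called genes and carry no test. Most gene lists below are therefore also given without BMF replicates 1 to 3, the 3 libraries richest in Rn45s, or with the Rn45s share as a covariate. Leaving them out keeps 2 BMF libraries, so fewer genes of any kind can pass. Some counts below are at an unadjusted p under 0.05, which 4511 of the 14862 genes tested reached in the main analysis (edgeR). For the alternatives this number over all genes was not taken. Unadjusted counts given for them therefore cannot be compared with a share over all genes. Another library, BAR replicate 3, held more RNA of conventional dendritic cells and B cells than any other, and 1440 genes (9.83%) were called without it. By the number of genes detected at equal depth, the libraries divided into 5 with more genes (BAR replicates 2 and 3 and BMF replicates 1 to 3) and 5 with fewer, a division seen in the data. Within the sets, 1481 and 87 genes were called.

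**Figure D1:**
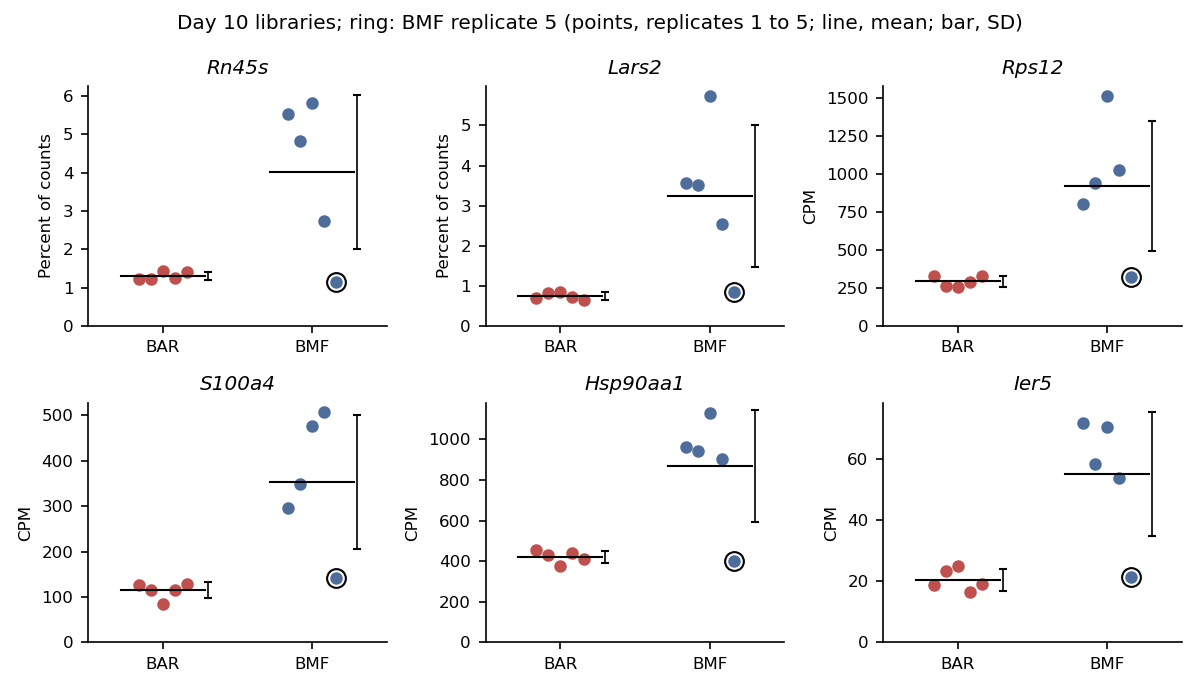
Percent of counts on Rn45s and Lars2, and CPM of 4 genes called lower in BAR, in each day 10 library (points, replicates 1 to 5 from left to right in each arm; line, mean; bar, SD). The ring marks BMF replicate 5, which lies within the BAR range for Lars2, Rps12, Hsp90aa1 and Ier5, just below it for Rn45s and just above it for S100a4, while BMF replicates 1 to 4 lie above every BAR library.

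Across the transcriptome, baricitinib went with many small changes. Of 14862 genes tested, 2145 were called at an adjusted p below 0.05 (edgeR's quasi-likelihood test, Benjamini-Hochberg), which is 14.4% of them, with 965 higher in BAR (6.49%) and 1180 lower (7.94%). The median size of the called changes was 0.44 on the log2 scale, and 1381 of the called genes moved by less than 1.5-fold. The CPM of the arms did not overlap for 1176 genes, 7.91% of those tested, of which 565 were higher in BAR (3.8%) and 611 lower (4.11%). The count of called genes was 111 without BMF replicates 1 to 3, 0.762% of 14559 genes tested, with 0.357% higher and 0.405% lower. It was 86 with Rn45s as a covariate (0.579%, with 0.276% higher and 0.303% lower), and 549 (3.69%) with B and dendritic cell markers as a covariate. Leaving out BMF replicate 2, 3 or 4 gave 1263, 1036 and 1191, and leaving out BMF replicate 5 gave 3615. In RNA from bulk cells, fewer cells of a type and less RNA per cell cannot be told apart.

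Within these changes, 42 genes were called in the same direction in the main analysis and in each of the 26 alternatives, among them every analysis that left out a library or adjusted for Rn45s. They were 15 higher and 27 lower genes, named after their values were seen. The lower genes held 2 cytokine receptor genes (Il12rb2 and Il18rap), 3 transcription factor genes (Satb1, Epas1 and Rora), 3 serine protease inhibitor genes (Serpinb9b, Serpinb9 and Serpinb6b) and the death and stress genes Bbc3, Ddit4 and Txnip. The higher genes held 6 type I interferon-stimulated genes (Dhx58, Isg20, Usp18, Ifi44, Eif2ak2 and Rsad2), the guanylate-binding protein gene Gbp10, and Cd200 and Cd200r1, a ligand and receptor pair that restrains immune cells. Below, a log2 fold change is BAR over BMF, so a negative one is lower with the drug.

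**Figure D2:**
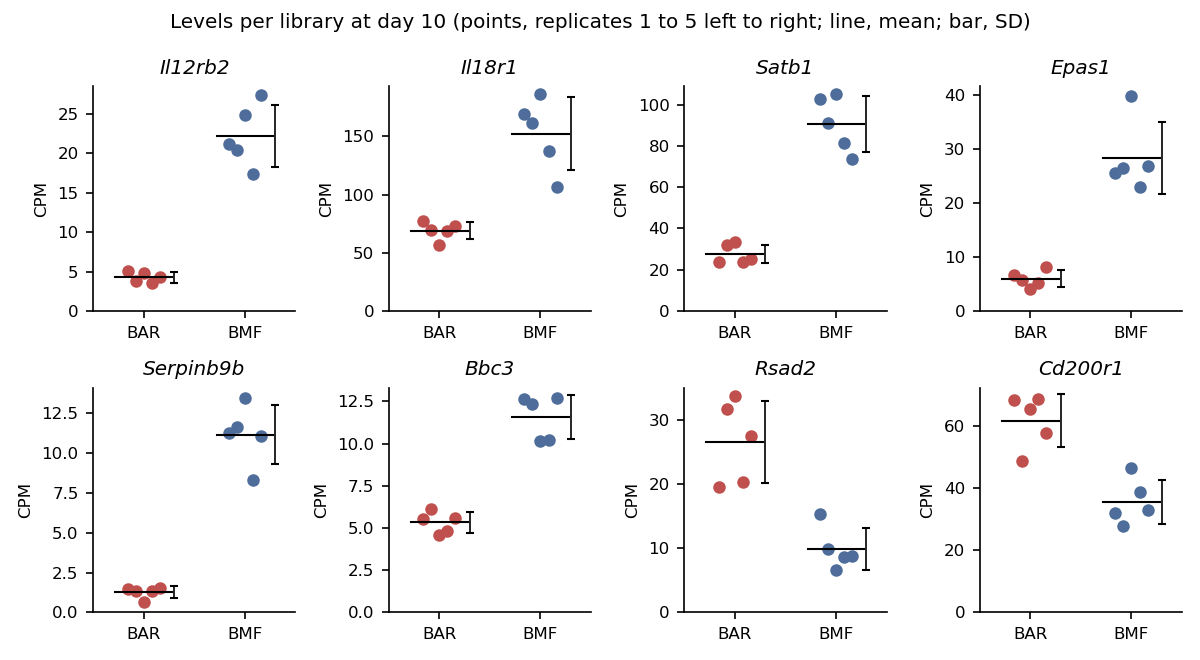
CPM of 8 genes in each day 10 library (points, replicates 1 to 5 from left to right; line, mean; bar, SD). BAR and BMF libraries do not overlap for any of them: the first 6 are lower in BAR, and Rsad2 and Cd200r1 are higher.

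The receptor chains of interleukin-12 and interleukin-18, which act together on effector T cells to raise interferon-gamma, were lower with baricitinib. Coordinates here and below are those of GENCODE M21 on GRCm38 (mm10), for protein-coding genes from start to end. Il12rb2, the inducible chain of the interleukin-12 receptor (chromosome 6, 67291318 to 67376188, overlapping Serbp1 on the other strand), had 5.09, 3.74, 4.88, 3.497 and 4.26 CPM in the BAR libraries, against 21.2, 20.4, 24.9, 17.4 and 27.4 CPM in the BMF libraries. The lowest BMF library held over 3 times the highest BAR library, and the arms did not overlap. Its log2 fold change ran from -2.45 to -2.27 over the alternatives. Il18r1, the ligand-binding chain of the interleukin-18 receptor (chromosome 1, 40465552 to 40500854), had 77.1, 69.9, 56.7, 68.9 and 72.9 CPM in the BAR libraries, against 169.6, 162, 187, 137 and 106 CPM in the BMF libraries. Here BMF replicate 5 was the lowest of its arm and still above every BAR library (log2 fold change -1.14, SE 0.157, adjusted p = 0.00054). Il18rap, its accessory chain on the same chromosome (chromosome 1, 40515362 to 40551705), had 114, 106, 102, 111 and 101 CPM in the BAR libraries, against 197, 201, 199, 169 and 142 CPM in the BMF libraries. The partner chain Il12rb1, which is expressed without induction, averaged 65.2 CPM in BAR and 73.5 CPM in BMF and did not pass (log2 -0.17, adjusted p = 0.249).

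Receptors for interleukin-2, interleukin-15 and interferon-gamma also fell. Il2ra, the high-affinity chain for interleukin-2, had 18.7, 11.8, 21.7, 15.3 and 14.1 CPM in the BAR libraries, against 34.7, 31.4, 49.6, 26.5 and 39.9 CPM in the BMF libraries. The arms did not overlap, and BMF replicate 3 was the highest library. Il15ra, which presents interleukin-15, fell by 0.51 on the log2 scale (adjusted p = 0.0115), while the signalling chains shared by both cytokines, Il2rb (log2 0.08, adjusted p = 0.667) and Il2rg (log2 -0.06, adjusted p = 0.664), did not pass. Ifngr1, the ligand-binding chain for interferon-gamma, had 345, 366, 319.6, 347 and 330.4 CPM in the BAR libraries, against 497, 536, 448, 434 and 501 CPM in the BMF libraries. Every BAR library was below every BMF library, and the change was -0.50 on the log2 scale (adjusted p = 0.000512). Il1rl1, the receptor for interleukin-33, averaged 6.45 ± 0.936 CPM in BAR libraries against 15.3 ± 1.83 CPM in BMF libraries (SD, n = 5 each; log2 fold change -1.24, SE 0.207, adjusted p = 0.00149).

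Among all 29 receptor chains tested, 7 fell and 3 rose (10.3% higher and 24.1% lower), with a median of 0.01, against 7.94% lower and 6.49% higher over all genes and a median of 0.00. Those that rose were Il6st, the chain shared by receptors of the interleukin-6 family (log2 fold change 0.37, SE 0.0883, adjusted p = 0.0121), Tgfbr3, a co-receptor for TGF-beta (log2 0.85, adjusted p = 0.0168), and Lifr, the leukaemia inhibitory factor receptor (log2 2.10, adjusted p = 0.0366), which was low and whose arms overlapped. For 1 of the 7 that fell, BMF replicate 5 lay at or below the highest BAR library. With BMF replicates 4 and 5 alone, 3 fell and 0 rose, against 0.405% lower and 0.357% higher over all genes.

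Neither of the drug's own targets passed the test. Jak1 averaged 692 ± 55.9 CPM in BAR libraries against 692 ± 72.7 CPM in BMF libraries and Jak2 115 ± 13.2 CPM in BAR libraries against 123 ± 5.22 CPM in BMF libraries (SD, n = 5 each), with log2 fold changes of 0.00 (adjusted p = 1) and -0.10 (adjusted p = 0.442). Of 12 kinases and factors, Stat4, which interleukin-12 activates, fell (log2 fold change -0.35, SE 0.0715, adjusted p = 0.00502), and Stat2, a factor of the type I interferon pathway, rose by 0.43 (adjusted p = 0.00633). After BMF replicates 1 to 3 were left out, 0 of the 12 fell and 0 rose by edgeR, with 3 lower and 2 higher at an unadjusted p under 0.05. Stat5a (log2 -0.19) and Stat5b (log2 -0.10) did not pass (adjusted p = 0.0677 and 0.244).

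Feedback genes moved in both directions. Cish, a STAT5-induced inhibitor, had 12.9, 11.1, 17.1, 13.5 and 14.2 CPM in the BAR libraries, against 20.2, 16.6, 29.6, 27.4 and 14.9 CPM in the BMF libraries. BMF replicates 3 and 4 were the highest libraries, and BMF replicates 2 and 5 lay inside the BAR range. It fell by the test (log2 fold change -0.66, SE 0.193, adjusted p = 0.0349), though in 16 of 26 alternatives the call was lost. Socs1 (log2 -0.03, adjusted p = 0.879) and Socs3 (log2 -0.14, adjusted p = 0.73), inhibitors induced by cytokines, did not pass. The phosphatase gene Ptpn2, which removes phosphate from JAK1, fell by 0.32 on the log2 scale (adjusted p = 0.00487). Usp18, which blocks JAK1 at the type I interferon receptor, rose and had 64.3, 74.4, 83.6, 69.3 and 72.2 CPM in the BAR libraries, against 51.3, 37.7, 32.5, 32.1 and 41.3 CPM in the BMF libraries, with no overlap. In this list of 19 genes 2 fell and 2 rose (10.5% higher and 10.5% lower, against 6.49% and 7.94% over all genes), with a median of 0.01. Without BMF replicates 1 to 3, 1 rose and 0 fell, against 0.357% higher and 0.405% lower over all genes. With Rn45s as a covariate 1 rose and 0 fell, against 0.276% and 0.303%.

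Target genes of the interleukin pathways were more often lower than higher. Of 20 genes reported as targets of interleukin-12 and STAT4, 7 fell (Il12rb2, Il18rap, Bhlhe40, Il18r1, Icos, Furin and Tbx21) and 1 rose (Nfil3). That is 5% higher and 35% lower, against 6.49% and 7.94% over all genes, with a median of -0.33 against 0.00. Furin, a protease that cuts pro-proteins, averaged 29.2 ± 2.49 CPM in BAR libraries against 42.8 ± 5.88 CPM in BMF libraries, and Icos, a costimulatory receptor, 76.7 ± 11.02 CPM in BAR libraries against 114 ± 8.48 CPM in BMF libraries (SD, n = 5 each). Of 31 STAT5 targets, 10 fell and 1 rose (3.23% higher and 32.3% lower, against 6.49% and 7.94% over all genes), with a median of -0.15. The survival gene Bcl2 was among those that fell (log2 fold change -0.67, SE 0.134, adjusted p = 0.00506), and the kinase gene Pim1 (log2 -0.05, adjusted p = 0.795) and Myc (log2 -0.18, adjusted p = 0.152) did not pass. The 2 lists share 5 of their called genes (Il18rap, Il18r1, Icos, Furin and Nfil3). Set against BMF replicates 4 and 5 only, 3 of the STAT4 targets and 1 of the STAT5 targets fell, with medians of -0.19 and -0.09, against 0.405% lower over all genes.

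A STAT site, read as TTC, any 3 bases and GAA, which reads the same on both strands, stood in the 250 bases before the start of 2 of the 11 STAT4 or STAT5 targets that fell and have a promoter in the RefSeq table (18.2%). Over all tested targets with a promoter, fallen or not, it was 6 of 34 (17.6%), so a site did not set the fallen targets apart from their lists. Over all genes tested the share was 7.5%, over all RefSeq promoters given it was 7.02%, and over all genes called lower 6.06%. The stretches of those 2 genes (RefSeq, GRCm38.p6, 5' to 3' along the gene's strand) are shown because both encode receptor chains that fell, with the site in capitals.
Il12rb2 (chr6:67376288-67376326, minus strand): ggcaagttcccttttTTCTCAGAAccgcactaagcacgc
Il18r1 (chr1:40465772-40465877, plus strand): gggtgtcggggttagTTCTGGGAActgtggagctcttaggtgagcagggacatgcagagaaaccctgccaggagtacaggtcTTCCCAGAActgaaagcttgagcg
For Il18r1 the RefSeq start differs from the GENCODE start given above, and the stretch lies inside the gene as GENCODE places it. A match is a run of letters and not a bound site.

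Type I interferon-stimulated genes moved the other way. Of 65 genes tested, 38 rose and 2 fell, and the arms did not overlap for 38, against 6.49% higher, 7.94% lower and 7.91% without overlap over all genes. Their median log2 fold change was 0.51, against 0.00 over all genes. Without BMF replicates 1 to 3 it was 0.48, with 11 of 65 genes higher and 0 lower, against 0.357% higher over all genes. With Rn45s as a covariate it was 0.47, with 11 higher, against 0.276% over all genes. Plasmacytoid dendritic cells express many of these genes. Their marker RNA, in a list of 14 tested genes of which 6 rose and 1 fell, summed to 603 to 1100.4 CPM in BAR and 568 to 684 CPM in BMF libraries, and it shares Bst2 with the interferon-stimulated list. With summed B cell and dendritic cell markers as a covariate, 25 interferon-stimulated genes rose and 1 fell, and the median was 0.42, against 1.7% higher, 2% lower and 3.69% in all over the genes tested. Without BAR replicate 3, 36 rose and 1 fell, against 4.45% and 5.38% of the genes tested. The part of these cells in the result was not tested further.

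**Figure D3:**
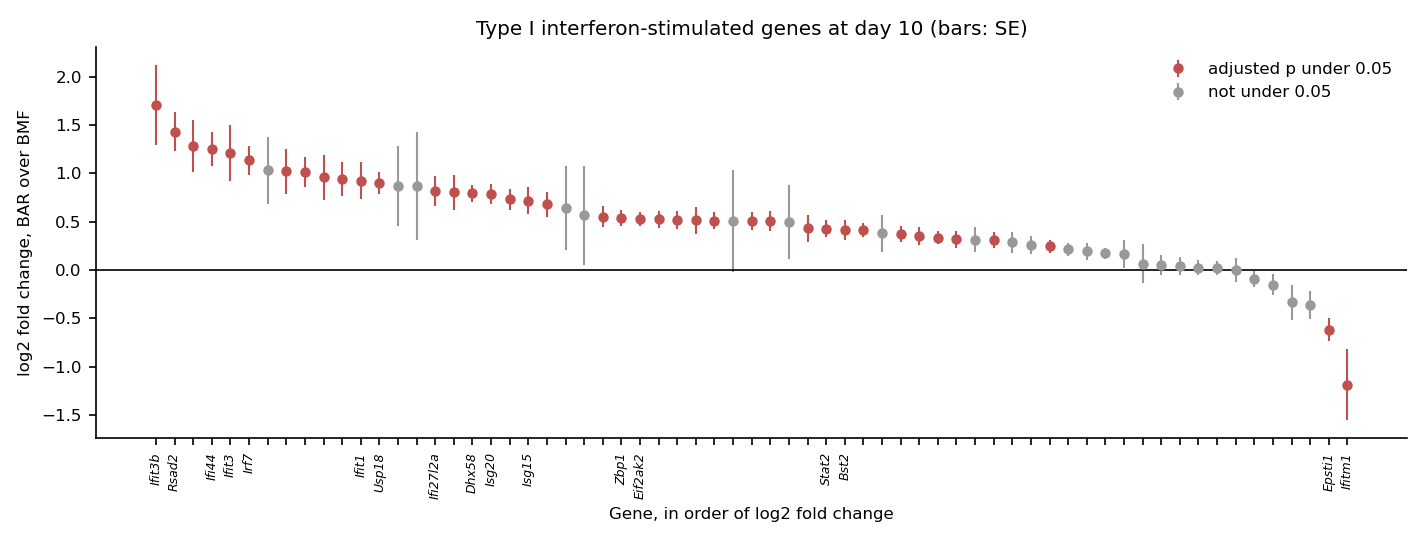
log2 fold change (BAR over BMF) of the 65 type I interferon-stimulated genes tested, in order of size and with the genes named in the text labelled, with the SE as bars; colour marks an adjusted p below 0.05. Ifit3b, at 1.71, is the highest, and Epsti1 and Ifitm1 are the 2 called lower.

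The response element of these genes can be read from their promoters. Shown are promoter stretches (RefSeq, GRCm38.p6) of 4 interferon-stimulated genes that rose, written 5' to 3' along the gene's strand, with matches to the element in capitals. The element was read as GAAA, any 2 bases and GAAA, or TTTC, any 2 bases and TTTC on the other strand, and neighbouring matches may overlap.
Isg15 (chr4:156200860-156200911, minus strand): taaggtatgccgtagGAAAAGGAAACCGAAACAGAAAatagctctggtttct
Ifit1 (chr19:34640770-34640828, plus strand): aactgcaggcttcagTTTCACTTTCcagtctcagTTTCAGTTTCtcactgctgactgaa
Ifit3 (chr19:34583358-34583431, plus strand): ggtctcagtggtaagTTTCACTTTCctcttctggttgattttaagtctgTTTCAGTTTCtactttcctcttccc
Rsad2 (chr12:26456548-26456587, minus strand): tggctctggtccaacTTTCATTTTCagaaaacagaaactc
In the 250 bases before the start, 11 of the 31 list members that rose and have a promoter in the RefSeq table held a match (35.5%). Over all tested list members with a promoter, risen or not, it was 19 of 49 (38.8%), so a match did not set the risen members apart from their list. The share was 382 of 11207 tested genes (3.41%) and 2.98% of all promoters in the table. Among the genes that rose outside the list the share was 5.11%, and among the genes called lower 3.32%. A match describes letters and not a bound site. The stretch of Ifit3b was identical in letters to that of Ifit3, a neighbouring copy, and reads of this pair could have been shared.

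Radical-SAM enzyme viperin, the product of Rsad2, blocks the replication of many viruses, and its gene had 19.6, 31.8, 33.8, 20.4 and 27.6 CPM in the BAR libraries, against 15.4, 9.86, 6.64, 8.595 and 8.85 CPM in the BMF libraries. All BAR libraries lay above all BMF libraries, of which replicate 1 was the highest. Irf7, the factor that amplifies type I interferon, had 141, 187, 192, 148 and 171 CPM in the BAR libraries, against 92.5, 80.8, 55.5, 64.6 and 88.2 CPM in the BMF libraries, again with no overlap (log2 fold change 1.14, SE 0.149, adjusted p = 0.000428). Isg15, a ubiquitin-like modifier, averaged 139.9 ± 9.97 CPM in BAR libraries against 85.3 ± 19.99 CPM in BMF libraries, and Ifit3, an RNA-binding antiviral protein, 51.96 ± 10.9 CPM in BAR libraries against 22.6 ± 9.14 CPM in BMF libraries (SD, n = 5 each). Among the abundant members, Ifi27l2a averaged 651 ± 61.7 CPM in BAR libraries against 370.4 ± 65.3 CPM in BMF libraries (log2 fold change 0.81, SE 0.153, adjusted p = 0.00381). The double-stranded RNA kinase gene Eif2ak2 and the nucleic acid sensor gene Zbp1 rose by 0.52 and 0.54 on the log2 scale (adjusted p = 0.00046 and 0.00054). The 2 that fell were Epsti1 (179 ± 19.5 CPM in BAR libraries against 275 ± 39.998 CPM in BMF libraries, SD, n = 5 each, adjusted p = 0.00363) and Ifitm1 (log2 -1.19, adjusted p = 0.0462).

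Genes induced mainly by interferon-gamma were called in shares near those over all genes. Of 38 tested, 4 rose and 3 fell (10.5% higher and 7.89% lower, against 6.49% and 7.94% over all genes), with a median of 0.04. In this list 1 rose and 0 fell without BMF replicates 1 to 3, against 0.357% higher and 0.405% lower over all genes. With Rn45s as a covariate 1 rose and 0 fell, against 0.276% and 0.303%. Gbp10, a guanylate-binding protein gene (chromosome 5, 105215699 to 105239533), had 56.9, 50.4, 53.3, 54.7 and 55.5 CPM in the BAR libraries, against 23.4, 24.2, 19.9, 18.97 and 24.9 CPM in the BMF libraries. The lowest BAR library held about 2 times the highest BMF library, and Gbp6, close enough in sequence to share reads with it, also rose (log2 fold change 0.61, SE 0.1004, adjusted p = 0.00107). The other rises were Gbp9 and Wars (0.37 and 0.26, adjusted p = 0.0207 and 0.0373). Irf1, a factor that interferon-gamma induces, fell (log2 fold change -0.30, SE 0.0926, adjusted p = 0.0355), as did Gbp3 (-0.32) and Serpina3g (-0.36), a protease inhibitor of activated T cells. The class I antigen genes H2-K1 and H2-D1 fell by 0.56 and 0.32 on the log2 scale (adjusted p = 0.00602 and 0.0185), the 2 called of 22 class I presentation genes, and 0 of them without BMF replicates 1 to 3. Reads of class I genes could be shared among close copies.

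Many transcription factors of effector cells were lower with the drug. Of 27 tested, 11 fell and 1 rose (Nfil3, 0.29), which is 3.7% higher and 40.7% lower, against 6.49% and 7.94% over all genes, with a median of -0.16. For 4 of the 11 that fell, BMF replicate 5 lay at or below the highest BAR library. Epas1, which encodes the oxygen-regulated factor HIF-2 alpha (chromosome 17, 86753700 to 86833410), had 6.72, 5.72, 4.01, 5.12 and 8.08 CPM in the BAR libraries, against 25.6, 26.5, 39.8, 22.9 and 26.8 CPM in the BMF libraries. Rora, a nuclear receptor found in innate-like and tissue T cells (chromosome 9, 68653786 to 69388246), had 15.1, 27.3, 12.4, 15.5 and 21.3 CPM in the BAR libraries, against 68.3, 65.5, 73.3, 63.7 and 46.4 CPM in the BMF libraries. In both genes all BMF libraries lay above all BAR libraries, BMF replicate 5 included. Hopx, a homeodomain protein of effector cells, averaged 89.2 ± 8.501 CPM in BAR libraries against 167 ± 18.5 CPM in BMF libraries, and Bhlhe40, which supports cytokine production, 207 ± 18.9 CPM in BAR libraries against 381 ± 87.3 CPM in BMF libraries (SD, n = 5 each). The master regulator of type 1 effector cells, Tbx21 or T-bet, fell (log2 fold change -0.38, SE 0.09897, adjusted p = 0.019), and its relative Eomes (log2 0.15, adjusted p = 0.275) and the terminal differentiation factor Prdm1 (log2 -0.09, adjusted p = 0.572) did not pass. Without BMF replicates 1 to 3, 4 fell, and with Rn45s as a covariate 3 did, with medians of -0.06 and 0.10, against 0.405% and 0.303% lower over all genes. The sign of the list's median turned under the covariate.

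Genes of the naive and memory programme were called in shares near those over all genes. Of its 29 genes, 3 fell and 3 rose (10.3% higher and 10.3% lower, against 6.49% and 7.94% over all genes), with a median of 0.01. Without BMF replicates 1 to 3, 0 rose and 2 fell, against 0.357% higher and 0.405% lower over all genes. With Rn45s as a covariate 1 rose and 1 fell, against 0.276% and 0.303%. Satb1, a chromatin organiser needed for T cell development (chromosome 17, 51736187 to 51833290), had 23.8, 31.8, 33.2, 23.9 and 25.1 CPM in the BAR libraries, against 103, 91.2, 105, 81.4 and 73.5 CPM in the BMF libraries. The highest BAR library stood well below the lowest BMF library, and its log2 fold change ran from -1.79 to -1.43 over the alternatives. Lef1, a factor of naive cells that acts with Tcf7, fell (log2 fold change -0.64, SE 0.102, adjusted p = 0.000919), and Tcf7 itself did not pass (log2 -0.05, adjusted p = 0.858). Dapl1 and Myb, genes expressed in less differentiated T cells, rose (0.91 and 0.50, adjusted p = 0.00291 and 0.0289).

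Inhibitors that shield killer cells from their own granzymes fell, and so did several granzymes. Serpinb9b, a relative of the granzyme B inhibitor Serpinb9 (chromosome 13, 33027416 to 33041884), had 1.496, 1.34, 0.627, 1.34 and 1.53 CPM in the BAR libraries, against 11.3, 11.6, 13.5, 8.31 and 11.1 CPM in the BMF libraries. Every BMF library was far above every BAR library. Serpinb9 averaged 124 ± 18.3 CPM in BAR libraries against 214 ± 13.4 CPM in BMF libraries and Serpinb6b 112 ± 17.1 CPM in BAR libraries against 199 ± 21.9 CPM in BMF libraries (SD, n = 5 each), each with no overlap between the arms and adjusted p of 0.000203 and 0.00026. Reads of these related genes could have been shared in part. Gzmb, the main granzyme of effector CD8 cells, had 894, 590.4, 842, 1009 and 824 CPM in the BAR libraries, against 1205, 1226, 1182, 1040.2 and 1112 CPM in the BMF libraries. BAR replicate 2 was lowest, and every BAR library lay below every BMF library (log2 fold change -0.47, SE 0.1202, adjusted p = 0.0166). Gzmc, a scarcer granzyme, had 2.69, 1.95, 1.84, 1.88 and 2.61 CPM in the BAR libraries, against 5.81, 4.69, 22.6, 7.601 and 8.48 CPM in the BMF libraries (adjusted p = 0.00184). BMF replicate 3 was far above the rest of its arm. Perforin, encoded by Prf1, averaged 391 ± 85.4 CPM in BAR libraries against 371 ± 44.999 CPM in BMF libraries and did not pass (SD, n = 5 each; log2 0.07, adjusted p = 0.752). Of 25 genes in this list 10 fell and 0 rose (0% higher and 40% lower, against 6.49% and 7.94% over all genes), with a median of -0.05. With BMF replicates 4 and 5 alone, 4 fell, against 0.405% over all genes.

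Cytokine and chemokine genes were called in shares near those over all genes. Ifng had 254, 212, 172, 247 and 214 CPM in the BAR libraries, against 511, 362, 309, 248 and 257 CPM in the BMF libraries. BMF replicate 4 lay inside the BAR range, and the difference did not pass (log2 fold change -0.62, SE 0.212, adjusted p = 0.0665). Tnf averaged 2.55 CPM in BAR and 5.46 CPM in BMF (log2 -1.10, adjusted p = 0.0521), also not past the threshold. Of 24 genes, 2 fell, Ltb (lymphotoxin beta, -0.46) and Tnfsf14 (LIGHT, -0.46), and 0 rose (0% higher and 8.33% lower, against 6.49% and 7.94% over all genes), while none was called by edgeR without BMF replicates 1 to 3 or with Rn45s as a covariate (5 and 4 at an unadjusted p under 0.05). Ccl5, the most abundant of them, averaged 4278 ± 755 CPM in BAR libraries against 3621 ± 772 CPM in BMF libraries (SD, n = 5 each, adjusted p = 0.298).

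A share of the oxygen-sensing and glycolytic genes was lower with baricitinib. Of 34 tested, 12 fell and 1 rose (2.94% higher and 35.3% lower, against 6.49% and 7.94% over all genes). The median was -0.17, against 0.00 over all genes. Hk2, the inducible hexokinase that starts glycolysis, had 13.7, 16.5, 17.2, 14.5 and 15.1 CPM in the BAR libraries, against 24.9, 24.1, 27.2, 20.8 and 22.6 CPM in the BMF libraries. The arms did not overlap. The glucose transporter gene Slc2a1 and the pyruvate dehydrogenase kinase gene Pdk1 fell by 0.39 and 0.45 on the log2 scale (adjusted p = 0.00407 and 0.0108). So did the oxygen sensor Egln1 (-0.40), the ubiquitin ligase subunit Vhl (-0.38), the collagen hydroxylase P4ha1 (-0.55), and Hif1a (log2 fold change -0.40, SE 0.101, adjusted p = 0.0169). Ndrg1, a stress gene induced by low oxygen, had 3.53, 4.44, 4.504, 3.28 and 4.81 CPM in the BAR libraries, against 10.97, 15.9, 11.5, 11.4 and 8.79 CPM in the BMF libraries. All BAR libraries were lower. In none of the 12 that fell did BMF replicate 5 lie at or below the highest BAR library. After BMF replicates 1 to 3 were left out, 4 fell with a median of -0.23, against 0.405% lower over all genes. With Rn45s as a covariate 2 fell with a median of -0.30, against 0.303% lower over all genes. The 1 that rose was Car2, a carbonic anhydrase that is also an erythroid marker. Txnip, which restrains glucose uptake and was not in the list, had 42.8, 65.3, 58.1, 41.996 and 55.8 CPM in the BAR libraries, against 114, 109, 104, 118 and 81.98 CPM in the BMF libraries, lower in all BAR libraries.

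Several genes of cell death and of the p53 response were lower. Bbc3, the death activator PUMA (chromosome 7, 16308393 to 16318205), had 5.56, 6.12, 4.56, 4.82 and 5.59 CPM in the BAR libraries, against 12.6, 12.3, 10.1, 10.2 and 12.7 CPM in the BMF libraries. No BAR library reached the lowest BMF library. Cdkn1a, the cell cycle inhibitor p21, averaged 8.62 ± 0.827 CPM in BAR libraries against 16.7 ± 4.37 CPM in BMF libraries, Zmat3, an RNA-binding p53 target, 5.99 ± 0.462 CPM in BAR libraries against 11.7 ± 2.41 CPM in BMF libraries, and Ddit4, an inhibitor of mTORC1, 59.9 ± 9.24 CPM in BAR libraries against 105 ± 15.5 CPM in BMF libraries (SD, n = 5 each), with adjusted p of 0.000512, 0.000512 and 0.000535. Survival genes fell too, among them Birc2 (-0.58), Cflar (-0.28) and Bcl2 (-0.67), as did the death receptor gene Fas (-0.45, adjusted p = 0.0142). Of 27 genes of the BCL2 family and death receptors 8 fell and 0 rose (0% higher and 29.6% lower), and of 24 p53 targets 6 fell and 0 rose (0% higher and 25% lower). Over all genes the shares were 6.49% higher and 7.94% lower. The medians of the 2 lists were -0.09 and -0.10. Bbc3, Fas and Pmaip1 stood in both lists. Set against BMF replicates 4 and 5 only, 1 of the family and 4 of the p53 targets fell, against 0.405% over all genes.

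Restraint genes went both ways. Cd200r1, an inhibitory receptor, had 68.3, 48.7, 65.6, 68.6 and 57.6 CPM in the BAR libraries, against 31.96, 27.8, 46.4, 38.7 and 33.02 CPM in the BMF libraries, with all BAR libraries higher. Its ligand gene Cd200 rose by 0.50 (adjusted p = 0.000725), as did Nt5e, the ectoenzyme CD73 that makes adenosine (log2 fold change 0.69, SE 0.122, adjusted p = 0.00207), Entpd1, the ectoenzyme CD39 (0.35), and Tox2 (0.86). Ctla4, a restraining receptor, and Nr4a3, a factor induced by the T cell receptor, fell (-0.57 and -0.91, adjusted p = 0.0173 and 0.00229), with Nfatc2 and Cblb (-0.49 and -0.37). Pdcd1, which encodes PD-1, averaged 752 ± 114 CPM in BAR libraries against 634 ± 62.2 CPM in BMF libraries and did not pass (SD, n = 5 each; log2 0.25, adjusted p = 0.112). In all, 7 of 28 rose and 4 fell (25% higher and 14.3% lower, against 6.49% and 7.94% over all genes), with a median of 0.12. Without BMF replicates 1 to 3, 3 rose and 0 fell, against 0.357% and 0.405% over all genes.

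Receptors that killer cells share with natural killer cells were called in shares near those over all genes. Of 18 in the list 1 rose and 2 fell (5.56% higher and 11.1% lower, against 6.49% and 7.94% over all genes), with a median of 0.00, and none was called by edgeR without BMF replicates 1 to 3 or with Rn45s as a covariate (4 and 4 at an unadjusted p under 0.05). Klrb1b, an inhibitory lectin-like receptor (chromosome 6, 128813706 to 128826331), a member of the same family that the list does not hold and that was chosen after its value was seen, had 1.53, 1.48, 1.21, 1.31 and 1.65 CPM in the BAR libraries, against 8.66, 6.35, 10.8, 6.298 and 7.26 CPM in the BMF libraries, with the smallest p of all genes (log2 -2.45, adjusted p = 1.69e-07). Klrg1, an inhibitory receptor that marks short-lived effector CD8 cells, had 26.6, 38.8, 19.3, 31.2 and 34.2 CPM in the BAR libraries, against 61.5, 63.6, 45.3, 55.6 and 62.9 CPM in the BMF libraries. The arms did not overlap (log2 fold change -0.95, SE 0.1903, adjusted p = 0.00653). Klrc1, which encodes the inhibitory receptor NKG2A, averaged 257 ± 32.9 CPM in BAR libraries against 350.4 ± 19.6 CPM in BMF libraries (SD, n = 5 each) and fell (adjusted p = 0.00649), and Cd244, the receptor 2B4, rose by 0.58 (adjusted p = 0.0146). Of 21 costimulatory and TNF-family receptor genes 1 rose and 4 fell (4.76% higher and 19% lower, against 6.49% and 7.94% over all genes), and none was called by edgeR without BMF replicates 1 to 3 or with Rn45s as a covariate (4 and 3 at an unadjusted p under 0.05). Tnfrsf25, the death receptor 3 that costimulates T cells, had 1.87, 4.998, 1.39, 2.83 and 3.87 CPM in the BAR libraries, against 8.82, 6.55, 10.6, 7.103 and 7.77 CPM in the BMF libraries (adjusted p = 0.00566). It was low in all libraries and lower in every BAR library.

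Several adhesion and cytoskeletal genes of effector cells were lower. Itga1, the collagen-binding integrin chain of tissue-resident cells, averaged 5.49 ± 0.879 CPM in BAR libraries against 13.1 ± 3.27 CPM in BMF libraries, Itgb3, the beta-3 integrin chain, 28.5 ± 5.801 CPM in BAR libraries against 60.1 ± 6.91 CPM in BMF libraries, and Itgax, the integrin chain CD11c, 12.9 ± 3.35 CPM in BAR libraries against 35.5 ± 2.82 CPM in BMF libraries (SD, n = 5 each). Each fell (adjusted p = 0.00054, 0.000919 and 0.00122). Of 36 homing and adhesion genes 8 fell and 2 rose (5.56% higher and 22.2% lower, against 6.49% and 7.94% over all genes). With BMF replicates 4 and 5 alone, 3 fell and 0 rose, against 0.405% lower and 0.357% higher over all genes. Ermn, a cytoskeletal protein (chromosome 2, 58045113 to 58052864), had 3.33, 3.07, 1.02, 3.28 and 3.05 CPM in the BAR libraries, against 17.1, 16.6, 19.5, 12.8 and 15.7 CPM in the BMF libraries. The BMF libraries were all higher. Ahnak, a giant scaffold protein, averaged 204 ± 34.8 CPM in BAR libraries against 405 ± 75.9 CPM in BMF libraries (SD, n = 5 each; log2 fold change -0.99, SE 0.146, adjusted p = 0.000667). Emp1, a membrane protein, averaged 4.19 ± 1.01 CPM in BAR libraries against 10.9 ± 2.204 CPM in BMF libraries (SD, n = 5 each), with no overlap. S100a4, a calcium-binding protein of effector cells, had 126, 115, 85.6, 116 and 129.5 CPM in the BAR libraries, against 296, 349, 476, 507 and 141 CPM in the BMF libraries, where BMF replicate 5 stood near the BAR libraries and the other BMF libraries far above. Of its list of 28 genes 7 fell and 2 rose (7.14% higher and 25% lower, against 6.49% and 7.94% over all genes). Without BMF replicates 1 to 3, 2 of the list fell, against 0.405% over all genes.

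Some signalling genes below the T cell receptor fell slightly. Of 33 tested, 7 fell and 0 rose (0% higher and 21.2% lower, against 6.49% and 7.94% over all genes), with a median of -0.11. The surface protein gene Thy1 (-0.61), the adaptor gene Fyb (-0.54), the kinase gene Prkcq (-0.35) and the protease gene Malt1 (-0.43) were among them, with adjusted p of 0.0028, 0.00296, 0.00835 and 0.0127. After BMF replicates 1 to 3 were left out, 0 fell by edgeR, with 9 lower at an unadjusted p under 0.05. Egr3, a factor induced by the receptor, averaged 2.904 ± 0.517 CPM in BAR libraries against 6.59 ± 1.46 CPM in BMF libraries (SD, n = 5 each; log2 fold change -1.18, SE 0.193, adjusted p = 0.00107), while Egr2 was higher (0.31, adjusted p = 0.0332). Ier5, an immediate early gene, had 18.7, 23.3, 25.2, 16.5 and 19.04 CPM in the BAR libraries, against 71.9, 58.4, 70.6, 54.01 and 21.3 CPM in the BMF libraries, with BMF replicate 5 inside the BAR range. Of 32 immediate early and feedback genes 4 fell and 1 rose (3.12% higher and 12.5% lower, against 6.49% and 7.94% over all genes). In that list 0 were called by edgeR without BMF replicates 1 to 3, with 3 higher and 4 lower at an unadjusted p under 0.05. Of 20 NF-kappaB factors and inhibitors 4 fell and 0 rose (0% higher and 20% lower, against 6.49% and 7.94% over all genes), and none was called by edgeR without BMF replicates 1 to 3 or with Rn45s as a covariate (4 and 2 at an unadjusted p under 0.05).

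In the ribosomal protein and heat shock genes that fell, BMF replicate 5 mostly lay at or below the highest BAR library. Of 77 cytosolic ribosomal protein genes, 30 fell and 1 rose (1.3% higher and 39% lower, against 6.49% and 7.94% over all genes), with a median of -0.27. For 27 of the 30, BMF replicate 5 lay at or below the highest BAR library. Rps12 had 332, 262, 254, 288 and 329.8 CPM in the BAR libraries, against 807, 941, 1519, 1029.6 and 323 CPM in the BMF libraries. BMF replicate 5 lay within the BAR range, and the other BMF libraries held over 2 times the highest BAR library. With BMF replicates 1 to 3 left out the list's median was -0.28 with 0 genes called by edgeR and 30 lower at an unadjusted p under 0.05, and with Rn45s as a covariate it was -0.10 with 0 called. Ribosomal protein genes have many processed copies, so their counts are uncertain. The chaperone genes Hsp90aa1 and Hsp90ab1 fell (-1.04 and -0.55, adjusted p = 0.0054 and 0.00356). Hsp90aa1 had 454, 430.1, 378, 439.8 and 412 CPM in the BAR libraries, against 963, 944, 1129, 902 and 400.1 CPM in the BMF libraries, and BMF replicate 5 lay inside the BAR range. Of 22 heat shock genes 4 fell and 1 rose (4.55% higher and 18.2% lower, against 6.49% and 7.94% over all genes). In that list 0 were called by edgeR without BMF replicates 1 to 3, with 3 lower at an unadjusted p under 0.05.

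Some cell cycle genes rose modestly. Among 57 genes of DNA replication, 17 rose and 1 fell (median 0.13), and among 62 of mitosis 10 rose and 1 fell (median 0.07). That is 29.8% and 16.1% higher and 1.75% and 1.61% lower, against 6.49% and 7.94% over all genes. Ccne2, a cyclin of S phase entry, averaged 47.6 ± 5.15 CPM in BAR libraries against 31.9 ± 5.502 CPM in BMF libraries, and Mcm2, a helicase subunit, 288 ± 24.4 CPM in BAR libraries against 231 ± 22.1 CPM in BMF libraries (SD, n = 5 each). Mki67, the proliferation marker Ki-67, did not pass (log2 -0.29, adjusted p = 0.139). With BMF replicates 1 to 3 left out the medians were 0.03 and -0.07, with 0 genes of either list called by edgeR, so the median of the mitosis list changed sign. Of 54 oxidative phosphorylation genes 3 rose and 0 fell (5.56% higher and 0% lower, against 6.49% and 7.94% over all genes), and of 45 genes of MYC and ribosome biogenesis 3 rose and 0 fell (6.67% and 0%). None of either list was called by edgeR without BMF replicates 1 to 3 or with Rn45s as a covariate. Of 35 genes of cholesterol and fatty acid metabolism 5 rose and 2 fell (14.3% higher and 5.71% lower, against 6.49% and 7.94% over all genes), and none was called by edgeR without BMF replicates 1 to 3 or with Rn45s as a covariate (7 and 5 at an unadjusted p under 0.05). Sqle, Fdps, Idi1 and Msmo1, enzymes of that pathway, rose by 0.43, 0.44, 0.45 and 0.41 (adjusted p = 0.0156, 0.0306, 0.0321 and 0.0329). They lost the call in 5, 13, 14 and 14 of 26 alternatives. Of 35 genes of the unfolded protein response and amino acid stress 4 rose and 2 fell (11.4% higher and 5.71% lower, against 6.49% and 7.94% over all genes), and none was called by edgeR without BMF replicates 1 to 3 or with Rn45s as a covariate (7 and 3 at an unadjusted p under 0.05). In the endoplasmic reticulum, the chaperone gene Hspa5 rose (1369.8 ± 91.01 CPM in BAR libraries against 1040.1 ± 78.2 CPM in BMF libraries, SD, n = 5 each, adjusted p = 0.00321) with Sdf2l1 (0.45) and Xbp1 (0.30), while the stress factor genes Atf4 (-1.05) and Atf6 (-0.45) fell (adjusted p = 0.00697 and 0.00149).

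**Figure D4:**
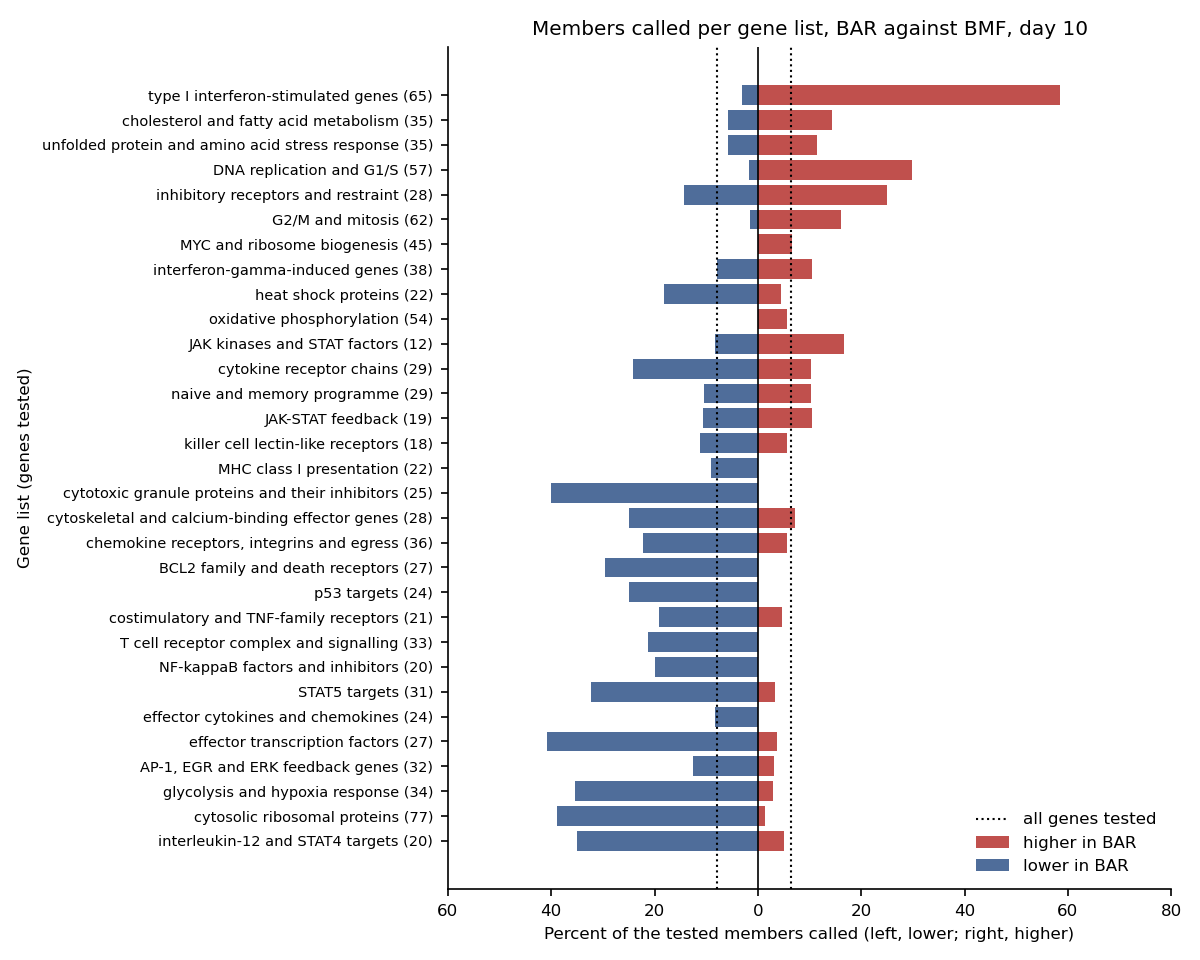
Percent of the tested members of each gene list that were called higher (right) or lower (left) in BAR at day 10, with the number of genes tested in parentheses; dotted lines mark the shares over all genes tested, 6.49% and 7.94%. Of the type I interferon-stimulated list 38 of 65 genes lie to the right, and of the effector transcription factors 11 of 27 lie to the left.

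RNA of several other marrow cells was higher in the BAR libraries. B cell markers summed to 80.6, 69.1, 506, 83.4 and 32.6 CPM in the BAR libraries, against 20.8, 32.2, 10.9, 12.01 and 22.7 CPM in the BMF libraries. Of 14 tested markers 11 rose (78.6%, against 6.49% over all genes). BAR replicate 3 was far above all others, and the lowest BAR library, replicate 5, stood just above the highest BMF library, replicate 2. Without BAR replicate 3, 11 of 14 rose, against 4.45% higher over all genes, and the list's median log2 fold change was 2.41, against 3.77 with it. By limma voom 5 rose, and none was called by edgeR without BMF replicates 1 to 3 or with Rn45s as a covariate (11 and 11 at an unadjusted p under 0.05). Spib, a transcription factor that B cells and plasmacytoid dendritic cells share, had 12.2, 9.94, 82.9, 13.9 and 5.27 CPM in the BAR libraries, against 2.34, 2.52, 0.259, 0.2605 and 1.74 CPM in the BMF libraries. Every BAR library was above every BMF library. Macrophage markers summed to 227, 332, 252, 184 and 222 CPM in BAR libraries, against 157, 129, 139, 143 and 178 CPM in BMF libraries, with no overlap, and 9 of 17 rose (52.9%, against 6.49% over all genes). Without BMF replicates 1 to 3, 1 rose and 0 fell, against 0.357% higher over all genes, and 0 rose and 0 fell with Rn45s as a covariate. The 9 that rose included Spic, a factor of iron-recycling macrophages, which had 14.8, 14.97, 11.8, 12.6 and 10.4 CPM in the BAR libraries, against 7.38, 4.38, 8.33, 5.85 and 6.15 CPM in the BMF libraries, as well as C1qc and Slc40a1, the iron exporter ferroportin (0.97 and 1.51, adjusted p = 0.00356 and 0.0186).

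Erythroid markers summed to 264, 543, 371, 237 and 467 CPM in BAR libraries, against 168, 119, 143, 139.7 and 284 CPM in BMF libraries, and 7 of 12 tested rose (58.3%, against 6.49% over all genes). Among them was the master regulator Klf1, which had 10.5, 27.8, 15.4, 8.24 and 23.4 CPM in the BAR libraries, against 3.88, 1.85, 1.36, 2.56 and 10.4 CPM in the BMF libraries. The highest BMF library was replicate 5 in both. Klf1 lost its call in 14 of 26 alternatives. Of the list, 2 rose without BAR replicate 3 and 0 with B and dendritic cell markers as a covariate, against 4.45% and 1.7% higher over all genes. None was called by edgeR without BMF replicates 1 to 3 or with Rn45s as a covariate (2 and 5 at an unadjusted p under 0.05). The globin genes Hba-a1, Hba-a2, Hbb-bs and Hbb-bt were listed at 0 in all 10 libraries. Neutrophil markers were the most abundant foreign RNA, with sums of 4840.1 to 13964 CPM in BAR and 2696 to 10107 CPM in BMF libraries. Of 19 markers, 0 were called by edgeR and 1 by DESeq2. By edgeR 3 were higher at an unadjusted p under 0.05, which 4511 of 14862 genes reached in either direction. Conventional dendritic cell markers reached 3789.9 CPM in BAR replicate 3, with a median of 705 CPM in BAR and 408 CPM in BMF libraries. BMF replicate 5, at 999 CPM, lay above every BAR library but replicate 3. Of 14 markers 1 rose and 1 fell (7.14% each, against 6.49% and 7.94% over all genes). The list's median log2 fold change was 1.07, and 0.06 without BAR replicate 3. Monocyte markers overlapped (1062 to 2093 CPM in BAR, 1223 to 1885 CPM in BMF libraries), as did those of mast cells, basophils and eosinophils. Stroma and endothelium markers summed to 136 to 218 CPM in BAR and 110.4 to 134 CPM in BMF libraries, with 4 of 16 higher and 1 lower (25% and 6.25%, against 6.49% and 7.94% over all genes). Megakaryocyte and platelet markers were lower in BAR in sum, at 33.6 to 55.9 CPM against 63.7 to 75.2 CPM in BMF libraries. By its averages given above, the integrin gene Itgb3 alone made up the larger part of these sums in both arms. Of the 11 tested, 1 fell (Itgb3) and 1 rose (9.09% each, against 7.94% and 6.49% over all genes), and 8 had a positive log2 fold change. Stem and progenitor markers overlapped (841 to 1145 CPM in BAR, 1075 to 1196 CPM in BMF libraries). With summed B cell and dendritic cell markers as a covariate, 5 effector transcription factors (against 11 without it), 6 ribosomal protein genes (against 30), 7 genes of glycolysis and hypoxia, 6 granule genes and 6 receptor chains fell, against 2% lower over all genes. No fit used the macrophage or erythroid markers as a covariate.

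**Figure D5:**
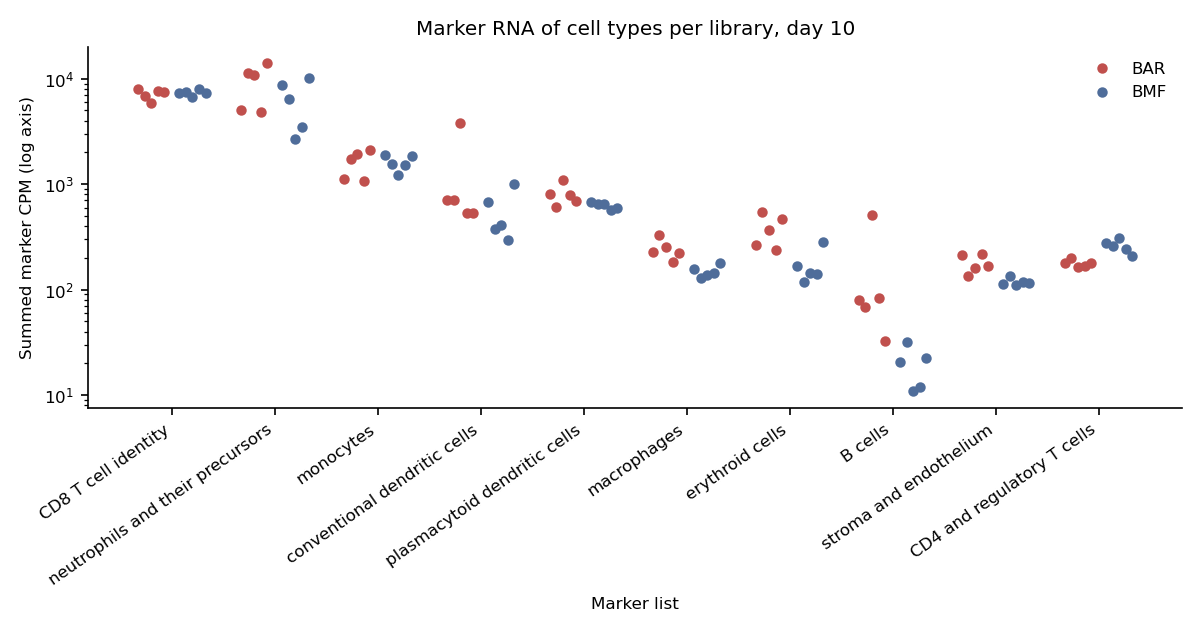
Summed CPM of marker genes of CD8 T cells and of other cell types in each day 10 library (points, replicates 1 to 5 from left to right; log axis). CD8 markers overlap between BAR and BMF, macrophage markers do not, and BAR replicate 3 is the highest for B cell and conventional dendritic cell markers.

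Among the remaining genes that were called in each alternative, several stand in none of the lists above. Prr5l, a regulator of the mTORC2 complex, had 77.8, 73.1, 66.2, 78.99 and 79.1 CPM in the BAR libraries, against 47.3, 42.9, 33.9, 36.4 and 39.1 CPM in the BMF libraries. It was higher in all BAR libraries (log2 fold change 0.91, SE 0.0921, adjusted p = 1.66e-05). Gucy1a3, a subunit of the nitric oxide receptor, averaged 10.3 ± 1.09999 CPM in BAR libraries against 4.94 ± 0.381 CPM in BMF libraries, and Itm2a, a membrane protein of activated T cells, 92.001 ± 12.2 CPM in BAR libraries against 58.8 ± 7.43 CPM in BMF libraries (SD, n = 5 each). Ccdc80, a secreted matrix protein, had 10.2, 6.59, 19.6, 19.2 and 8.01 CPM in the BAR libraries, against 1.76, 1.46, 1.04, 0.687 and 1.24 CPM in the BMF libraries, with the lowest BAR library over 3 times the highest BMF library. Lower in all BAR libraries were Cytip, which regulates T cell adhesion (149 ± 8.68 CPM in BAR libraries against 230.2 ± 19.8 CPM in BMF libraries, SD, n = 5 each), Pde4d, a phosphodiesterase that degrades cyclic AMP (-0.97), Camk4, a calcium-dependent kinase (-0.57), Igf2bp3, an RNA-binding protein (-0.83), and Hid1 (-0.76), with adjusted p between 5.48e-06 and 0.000296. Hid1 had 10.5, 12.3, 10.9, 11.4 and 12.5 CPM in the BAR libraries, against 19.4, 20.03, 19.2, 18.99 and 20.2 CPM in the BMF libraries. The arms did not overlap, and each spread over about 2 CPM or less.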

How the data were processed

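RNA of flow-sorted marrow CD8+ T cells was measured in 16 libraries made with the SMART-Seq mRNA LP kit, per the labels' protocols. The authors deposited raw counts per gene in 1 table; HISAT2 2.0.5 and mm10 are named per the submitters' processing notes. The read counter, its annotation and its strand setting were not given in the sources used here. From 24421 entries, 27 that are calendar dates (damaged gene symbols, at most 0.293% of a library's counts) were dropped. Groups followed the treatment label. Counts were fitted in R 4.3.3 with edgeR 4.0.16 (robust quasi-likelihood test, TMM scaling, filterByExpr, 4 group means over 16 libraries), and p-values were Benjamini-Hochberg adjusted over 14862 genes at 0.05. CPM values use TMM-scaled totals. Single values were compared by exact two-sided permutation tests. The test was tried on simulated counts. DESeq2 1.42.0, limma 3.58.1 voom, other scalings, filters, covariates and each library left out were alternatives.

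The members and gene lists were chosen with earlier results of these data known. Named genes were, by rule, the 12 called rises and 12 falls with the smallest p at 10 CPM or more without overlap, the 10 largest of each at 200 CPM or more, up to 5 called genes per list and direction (3 for marker lists), and a list of drug target and effector genes. Camk4, Ccl5, Eif2ak2, Entpd1, Hif1a, Ifit1, Ifit3, Ifit3b, Il12rb1, Il15ra, Il2rb, Il2rg, Isg15, Itm2a, Klf1, Klrb1b, Mcm2, Pde4d, Pdk1, Pmaip1, Rsad2, Slc40a1, Tnf, Txnip, Vhl and Zbp1 were named after their values were seen. Some genes are not reported here by name.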

Additional observations from a re-analysis of the deposited data

Results flagged for a closer look

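In 29 of 364 sets of 5 libraries, 1 library lay apart from the other 4 of its arm by Dixon's criterion (a gap over 0.71 of the range), where chance gives about 1 in 20. BAR replicate 3 was apart on the high side for Lifr (15.5 against 5.37 CPM in the nearest library), Myb (72.1 against 53.1 CPM in the nearest library), Spib (82.9 against 13.9 CPM in the nearest library), the summed markers of B cells (506 against 83.4 CPM in the nearest library), the summed markers of plasma cells (296 against 249 CPM in the nearest library) and the summed markers of conventional dendritic cells (3789.9 against 715 CPM in the nearest library). It was apart on the low side for Camk4 (50.1 against 61.6 CPM in the nearest library), Epsti1 (145 against 184 CPM in the nearest library), Ermn (1.02 against 3.05 CPM in the nearest library), Serpinb9b (0.627 against 1.34 CPM in the nearest library) and Stat4 (153 against 194 CPM in the nearest library). BMF replicate 3 was apart on the high side for Epas1 (39.8 against 26.8 CPM in the nearest library), Gzmc (22.6 against 8.48 CPM in the nearest library) and Hif1a (439 against 403 CPM in the nearest library). It was apart on the low side for Ccl5 (2282 against 3767 CPM in the nearest library), Cd4 (0.519 against 1.04 CPM in the nearest library) and the summed markers of natural killer cells (3205 against 3999 CPM in the nearest library). BMF replicate 5 was apart on the high side for Car2 (110.02 against 44.3 CPM in the nearest library), Klf1 (10.4 against 3.88 CPM in the nearest library) and Wars (112 against 88.05 CPM in the nearest library). It was apart on the low side for Ahnak (269 against 433 CPM in the nearest library) and Malt1 (49.7 against 61.98 CPM in the nearest library). BMF replicate 4 was apart on the high side for Epsti1 (345 against 265 CPM in the nearest library). It was apart on the low side for Furin (32.8 against 43.7 CPM in the nearest library) and Gbp6 (89.1 against 101 CPM in the nearest library). BAR replicate 2 was apart on the high side for C1qc (28.6 against 18.8 CPM in the nearest library) and Emp1 (5.92 against 4.05 CPM in the nearest library). BAR replicate 1 was apart on the low side for Cd200 (71.9 against 74.1 CPM in the nearest library). BMF replicate 1 was apart on the high side for Pim1 (119 against 87.4 CPM in the nearest library). No explanation of these values was tested.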

How the results depend on the processing

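The count of genes called kept within 1.5 times of 2145 with another scaling (2151), DESeq2's test (2838), limma voom (1794), no filter (1625) or a stricter one (2109), day 10 libraries only (1832), a genes-detected (2299) or neutrophil covariate (1613), Rn45s and Lars2 removed (2100) and a term for the division by genes detected (2068). It was 111 (52 higher, 59 lower) without BMF replicates 1 to 3, 86 (41 and 45) with Rn45s as a covariate, 549 (252 and 297) with B and dendritic cell markers as a covariate and 342 (160 and 182) against a fold of 1.2, a test that asks for a larger change. Within the 5 libraries with fewer genes detected it was 87 (41 and 46), and within the 5 with more 1481, of which 725 were lower; this division was chosen after seeing the data, and both sets hold fewer libraries. Leaving out 1 library gave 1036 (without BMF replicate 3) to 3615 (without BMF replicate 5), with 413 to 1856 higher and 623 to 1759 lower; it was 1263 and 1191 without BMF replicates 2 and 4. The cause of these shifts was not tested. Of the 2145 genes, 17 changed sign with Rn45s as a covariate and 0 under any other alternative. The BAR minus BMF difference of the Rn45s share was -2.70 percentage points and ran from -3.42 to -2.26 with 1 library left out, where the exact p was 0.0873 without any 1 BAR library; that of the Lars2 share was -2.49 and ran from -3.09 to -1.87. For the genes named, 3599 of 4204 repeats kept direction and side of the threshold, 586 lost the call, 19 gained it and 0 reversed. Of the 140 named genes that were called, 26 lost the call without some 1 library, most often without BMF replicate 3 (23) and least often without BMF replicate 5 (3). No paired analysis was possible because the replicate numbers follow accession order and mark no shared animal, batch or day. The filter on low counts left 14862 of 24394 genes to test, and nothing is said of the rest.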

Other observations

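Abundant genes outside the lists that rose in BAR libraries included secreted and lysosomal proteins. Lgals9, the lectin galectin-9, had 237, 248, 272, 229 and 259 CPM in the BAR libraries, against 156, 153, 103, 133 and 178 CPM in the BMF libraries, with no overlap (log2 0.78, adjusted p = 0.000394). Ctsb, the lysosomal protease cathepsin B, averaged 909 ± 49.4 CPM in BAR libraries against 680.1 ± 83.9 CPM in BMF libraries (SD, n = 5 each), and Slc25a5, which exchanges ADP and ATP across the mitochondrial membrane, 1209.8 ± 107 CPM in BAR libraries against 935 ± 156 CPM in BMF libraries (SD, n = 5 each). They rose by 0.42 and 0.37 on the log2 scale (adjusted p = 0.0152 and 0.0176). Izumo1r, which encodes the folate receptor 4 of T cells, had 34.7, 29.99, 34.9, 36.6 and 34.1 CPM in the BAR libraries, against 19.9, 20.6, 14.9, 23.7 and 23.6 CPM in the BMF libraries, again with no overlap (log2 0.73, adjusted p = 0.000394). Macrophages and dendritic cells also express Lgals9 and Ctsb, and the levels of their markers are given in the report.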
